A study of Mus musculus with 4 samples.

Results

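The genes described here are 38 imprinted genes of the mouse, taken from a list that names them by symbol. The array has 18193 genes with a probe set of their own, 35 of the 38 among them. The listed genes were read on 103 of the 45101 probe sets of the array. An imprinted gene is transcribed mainly or wholly from 1 parental copy, because a nearby control region was methylated in the egg or in the sperm and kept that mark after fertilisation. Imprinted genes lie in domains in which genes of opposite parental copies, often with a long noncoding RNA among them, share a control region. Many of them act in fetal growth and in the developing brain, and several show their imprint only in some tissues. An array signal sums both copies, so none of the values below says which copy was transcribed.

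Total RNA was measured on 4 Affymetrix mouse expression arrays, 1 for each cell sample. The samples were mouse embryonic fibroblasts (MEF), neural stem cells derived from primary tissue (NSC), and 2 kinds of induced neural stem cell, iNSC_13F obtained with 13 factors and iNSC_14F obtained with 14. Such cells come from another lineage, which introduced factors have turned towards a neural stem cell state, and the study asked how close they come to neural stem cells. The title of the study concerns adult liver cells and B lymphocytes, but the labels do not give the starting cell of each induced sample, name the factors, or state a strain or sex. The culture medium of NSC and of the induced cells was N2 with the growth factors EGF and bFGF and with laminin, while fibroblast culture is not described in the sources used here. MEF is therefore a reference cell type in these data and not a stated parent of the induced cells. With 1 array for each sample, the differences below have no replicate check and were not tested, so values stand without an SD or a p-value. In RNA from whole cultures, fewer cells that express a gene and less RNA per cell cannot be told apart.

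The values are signals on a linear scale that MAS5 computes for each probe set, with a trimmed mean of 500 on every array. A signal was compared between arrays for 1 probe set and never between probe sets. A gene took its brightest probe set. The floor was a signal of 103.91, set from 86 probe sets of taste, vomeronasal and odorant receptor genes as the highest of the 4 arrays' 95th percentiles. Those percentiles were 103.9 on MEF, 37.1 on NSC, 99.4 on iNSC_13F and 70.9 on iNSC_14F. A signal below the floor is therefore not shown to be absent, least of all on NSC. Where the dimmer array was at or below that floor, the fold is a bound, written as at least. A gene was counted as measured in a pair of arrays when it was above the floor on at least 1 of them, and as apart when the difference was at least 4-fold. The 6 pairs share their arrays, so their counts are not independent.

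Markers of the labelled cell types were read first. Fibroblast markers summed to a signal of 151000 on the MEF array, with 6 of 7 above the floor, and to 148.1, 876 and 417.4 on the NSC, iNSC_13F and iNSC_14F arrays, where 0, 3 and 2 of 7 were above it, and Col1a1, Postn and Pdgfrb were below it on all 3. Neural stem cell markers were above the floor in 3 of 7 on the MEF array, 7 of 7 on NSC and 6 of 7 on each induced array, with sums of 1534, 52720, 41110 and 46840. Sox1 was the marker below the floor on both induced arrays, though close to it. It read 25.6 on MEF, 525 on NSC, 96.8 on iNSC_13F and 93.2 on iNSC_14F. Neuronal markers reached 2 of 7 on MEF, NSC and iNSC_14F and 4 of 7 on iNSC_13F. Their sums were 3956, 683.4, 637.4 and 504.2 on MEF, NSC, iNSC_13F and iNSC_14F, highest on MEF through Stmn2 (2770) and Tubb3 (990). No hepatocyte, B lymphocyte or pluripotent cell marker was above the floor on any array. The part of these differences in the imprinted genes was not tested. The 18 hybridization controls were 1.85 to 2.11 times lower on the NSC array than on the other arrays. Values scaled to these controls or by quantiles are therefore given below where that scaling makes or ends a 4-fold call among the 38 genes.

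Of the 38 genes, 36 had a probe set. Rtl1, a gene derived from a retrotransposon, and Zrsr1, a relative of a splicing factor, had none. H19 was read only by a probe set that also names the microRNA gene Mir675, which left 35 genes with a probe set of their own. Of these, 28 exceeded the floor on 1 array or more, and 13 did so on all 4. The 7 below it on all 4 were Phlda2 and Ascl2, which act in the placenta, Peg10, also derived from a retrotransposon, Asb4, the calcitonin receptor gene Calcr, Usp29 and Zim1. On the MEF array 68.6% of the 35 genes were above the floor, on NSC 57.1%, on iNSC_13F 48.6% and on iNSC_14F 57.1%. The same shares over all genes were 58%, 54.2%, 55.9% and 54.7%. The highest signal lay on the MEF array for 11 of the 28 genes, on NSC for 11, on iNSC_13F for 1 and on iNSC_14F for 5. These counts use signals without the floor and take in genes near it. They were not made over all genes, so they describe the list only.

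**Figure D1:**
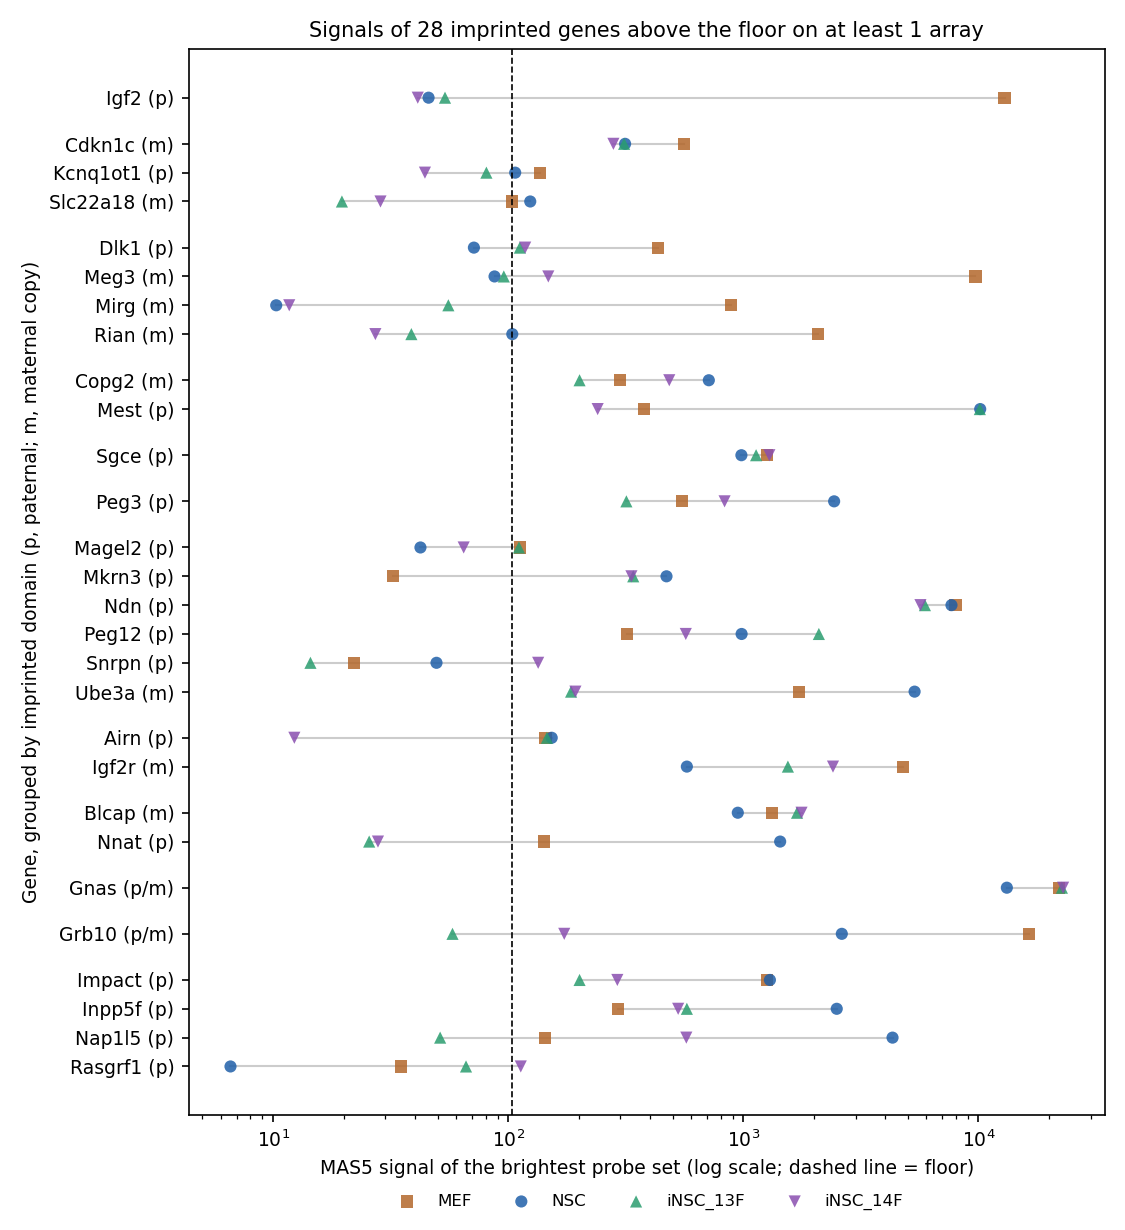
MAS5 signal (log scale) of the brightest probe set of each of the 28 imprinted genes that exceed the floor on any array, grouped by domain, with 1 point for each array and the floor of 103.91 as a dashed line. Igf2, Meg3, Rian and Mirg stand apart on the MEF array, Nap1l5, Nnat, Peg3 and Inpp5f are highest on the NSC array, and Mest is bright on the NSC and iNSC_13F arrays only, at 10175 and 10138.

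Between NSC and MEF, 13 of the 26 imprinted genes measured were at least 4-fold apart, or 50%, against 13.3% of all genes. On the NSC array 6 were higher, against 6.09% of all genes, and 7 were lower, against 7.21%. The 6 were Nap1l5, Mest, Nnat, Inpp5f, Mkrn3 and Peg3, all paternally expressed genes. The 7 were Igf2, Meg3, Rian, Grb10, Mirg, Igf2r and Dlk1, most of them known for parts in growth control or as noncoding RNAs. The median log2 difference over the 26 genes was -0.09, against -0.01 over all genes, so the genes apart lay on both sides. With arrays scaled to the hybridization controls, the median of all genes moved to 0.80 and that of the imprinted genes to 0.53, with 9 of 27 higher and 5 lower and 20.9% of all genes apart. The genes added on the higher side were Copg2, Peg12 and Ube3a, of which Copg2 and Ube3a are listed as maternal. With a median over each gene's probe sets in place of the brightest, 8 of 23 genes were apart, against 10.9% of all genes. When both arrays had to be above the floor they were 7 of 18, against 9.88%.

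**Figure D2:**
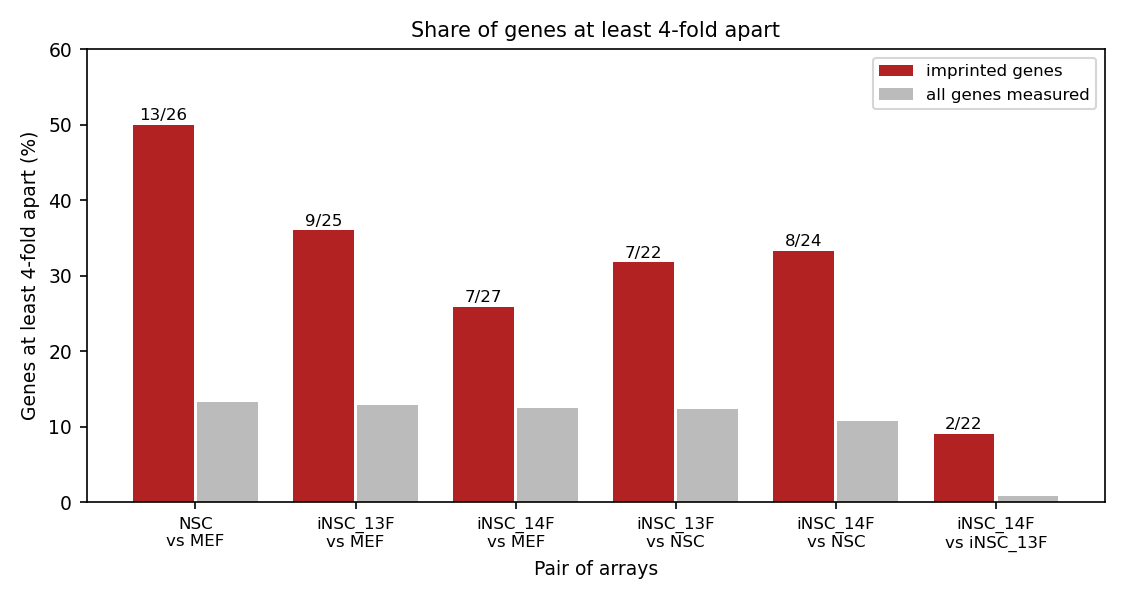
Share of genes at least 4-fold apart (%) in each of the 6 pairs of arrays, for the imprinted genes (red, with the count over the number measured) and for all genes measured (grey). The imprinted share is 50% against 13.3% between NSC and MEF and 9.09% against 0.842% between the induced arrays.

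The genes of the Igf2 and H19 domain were bright on the MEF array alone. Igf2 encodes insulin-like growth factor II, a fetal growth factor made from the paternal copy. Its brightest probe set read 12910 on MEF, 45.8 on NSC, 53.8 on iNSC_13F and 41.2 on iNSC_14F, and the last 3 are below the floor. Igf2 was thus at least 124-fold lower on each of the 3 neural arrays than on MEF. A second Igf2 probe set, dimmer, read 150 on MEF and was below the floor on the others. H19 is a noncoding RNA made from the maternal copy. The probe set shared by H19 and Mir675 read 16441 on MEF, 25.7 on NSC, 16 on iNSC_13F and 119 on iNSC_14F. That is at least 158-fold lower on NSC and iNSC_13F and 138-fold lower on iNSC_14F, where it was just above the floor. Both sides of this domain, the paternal growth factor and the maternal RNA, were therefore low on all 3 neural arrays.

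The H19 transcript is the source of miR-675, and the Mest gene holds miR-335 within it. The arrays did not measure the mature microRNAs. Their sequences, from RefSeq on GRCm38.p6, are given because the H19 probe set was bright on MEF alone and Mest differed most between the induced arrays, with the seed (bases 2 to 8) in capitals. The miR-675 arms lie on the minus strand at chr7:142577112-142577133 and chr7:142577078-142577099, and the miR-335 arms on the plus strand at chr6:30741314-30741336 and chr6:30741354-30741375.
mmu-miR-675-5p: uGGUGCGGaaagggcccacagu
mmu-miR-675-3p: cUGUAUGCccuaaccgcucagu
mmu-miR-335-5p: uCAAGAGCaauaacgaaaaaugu
mmu-miR-335-3p: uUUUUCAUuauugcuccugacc
No 2 of these 4 share a seed.

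The Dlk1-Meg3 domain was also brightest on MEF. Meg3, Rian and Mirg are noncoding RNAs of the maternal copy, and Rian and Mirg carry many small nucleolar RNAs and microRNAs between them. Meg3 read 9711 on MEF, 87.4 on NSC, 95.7 on iNSC_13F and 148 on iNSC_14F, at least 93.5-fold lower on NSC and iNSC_13F and 65.6-fold lower on iNSC_14F. The next brightest on MEF read 8922, 101, 32.2 and 36.1 on the same arrays, and 3 more read 5275, 3283 and 1667 on MEF and were below the floor elsewhere. Of the 11 Meg3 probe sets, 10 were above the floor on MEF or NSC, and in 10 of 10 the signal was higher on MEF. Rian read 2085 on MEF, 103.8 on NSC (just under the floor), 38.7 on iNSC_13F and 27.2 on iNSC_14F, at least 20.1-fold lower on each neural array. Mirg read 883, 10.3, 55.6 and 11.7, at least 8.50-fold lower on each neural array. All 4 Rian and both Mirg probe sets went the same way. A median over all probe sets of a gene, most of them dim, gave log2 differences from MEF of -1.37 for Meg3 and -1.97 for Rian on each neural array, short of 4-fold.

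Dlk1, the paternally expressed membrane protein of the domain that holds back fat cell differentiation, differed less. It read 433 on MEF, 71.4 on NSC, 112 on iNSC_13F and 118 on iNSC_14F. It was at least 4.16-fold lower on NSC than on MEF, and 3.88-fold and 3.66-fold lower on the induced arrays, which falls short of the 4-fold rule. With hybridization control scaling the iNSC_13F difference passes it, at -2.06 on the log2 scale. The call on NSC is lost when the arrays are scaled to the hybridization controls, with a log2 difference of -1.71, with a higher floor (-1.24) and with the median of its probe sets (-0.60). From the start of Meg3 to the end of Mirg, RefSeq lists 57 microRNA hairpins, of which 1 lies inside Meg3, 3 inside Rian and 10 inside Mirg. By position, 15 hairpins lie inside Rtl1, which had no probe set. These counts took hairpins of either strand.

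**Figure D3:**
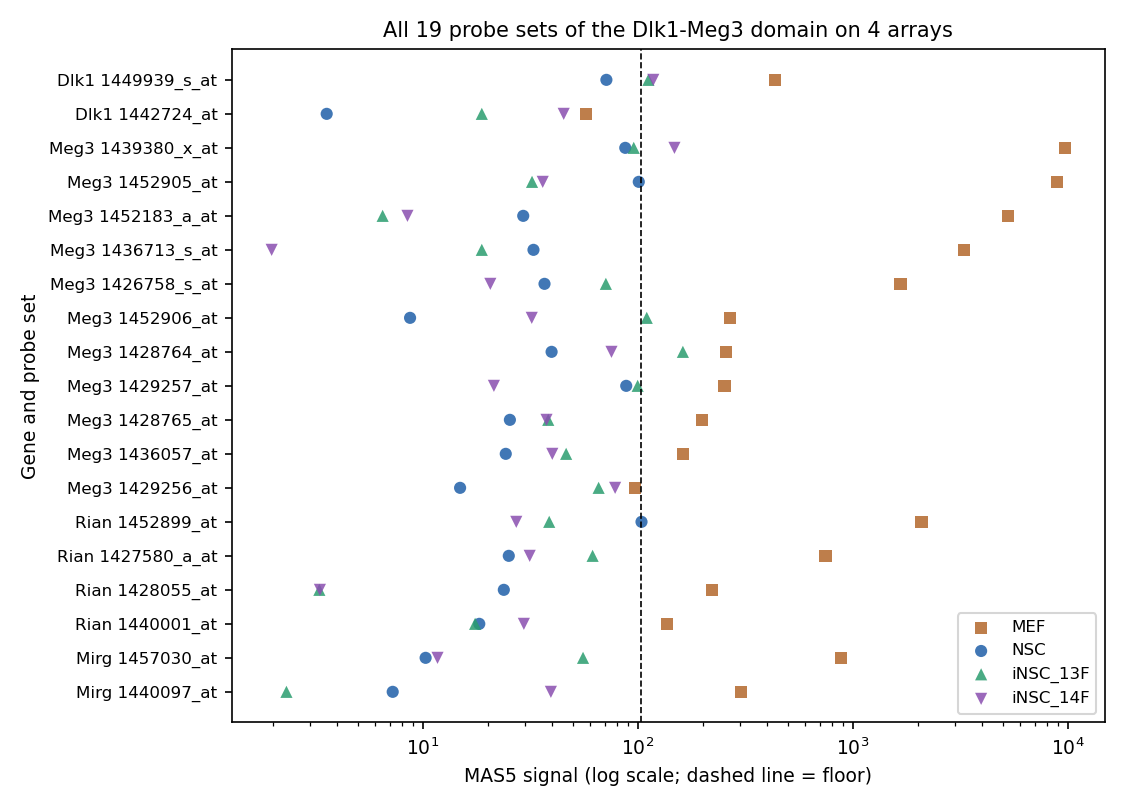
MAS5 signal (log scale) of all 19 probe sets of Dlk1, Meg3, Rian and Mirg, with 1 point for each array and the floor of 103.91 as a dashed line. The MEF point lies furthest right in every row, and the points of the neural arrays lie near or below the floor.

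Grb10 and Igf2r restrain growth factor signalling and were both highest on MEF. Grb10 is an adaptor that dampens signalling from the insulin and IGF receptors, expressed from the maternal copy in most tissues and from the paternal copy in neurons. It read 16466 on MEF, 2623 on NSC, 57.9 on iNSC_13F and 173 on iNSC_14F. Grb10 was 6.28-fold lower on NSC than on MEF, though not by 4-fold when scaled to the hybridization controls (log2 -1.76). On the induced arrays it was below both references, at least 158-fold and 95-fold lower than on MEF and at least 25.2-fold and 15.1-fold lower than on NSC. The other 2 Grb10 probe sets were dim, at 104 and 222 on MEF and below the floor on the other arrays, so the median over probe sets gave a log2 difference from MEF of only -1.09.

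Igf2r, the receptor that takes up IGF2 and delivers it for degradation, is made from the maternal copy. It read 4759 on MEF, 575 on NSC, 1547 on iNSC_13F and 2406 on iNSC_14F, with a second probe set at 2338, 242, 790 and 1021. It was 8.27-fold lower on NSC than on MEF. The induced arrays lay between the references, and iNSC_14F was 4.18-fold above NSC. That last difference falls to 1.17 on the log2 scale with hybridization control scaling. Airn, the paternal noncoding RNA that lies across Igf2r, read 144, 153, 146 and 12.3 on MEF, NSC, iNSC_13F and iNSC_14F and was not 4-fold apart in any pair. A second Airn probe set read 182, 134, 58.5 and 15.7 on the same arrays.

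Mest gave the widest difference between the induced samples. Mest, also called Peg1, is a paternally expressed gene for a protein of the hydrolase fold, and it is known for effects on fetal growth. Its single probe set read 379 on MEF, 10175 on NSC, 10138 on iNSC_13F and 239.5 on iNSC_14F. It was 26.9-fold higher on NSC and 26.8-fold higher on iNSC_13F than on MEF, and 42.5-fold lower on iNSC_14F than on NSC. Between the induced arrays it was 42.3-fold lower on iNSC_14F, a log2 difference of -5.40. From the lowest difference upwards, this ranked 1 of the 10809 genes measured in that pair. The comparison of iNSC_14F with NSC put Mest at rank 2 of 10812. Copg2, a coat protein gene that overlaps the end of Mest and is maternally expressed in some tissues, read 299, 713, 201 and 484, with no pair 4-fold apart. With hybridization control scaling Copg2 passes 4-fold between NSC and MEF (log2 2.14) and between iNSC_13F and NSC (-2.90).

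The promoters of Mest are shown because the gene has more than 1 start, and because a Mest start is among the sites where the imprint is set. Capitals mark the hexamer TGCCGC on either strand, which reads GCGGCA on the other strand and is the core of the site bound by ZFP57, a protein that keeps imprints. The hexamer is in 11.6% of 32851 RefSeq promoters of 300 bases (250 before the start and 50 after it) and itself contains a CG dinucleotide, the other motif counted. Of 47 promoters of 32 imprinted genes, 11 hold it (23.4%), which belong to 10 genes. Impact is not among the 32, since promoters of its chromosome were left out of the 47 but not of the 32851. Windows of 1 gene can overlap, and 2 of the 11 are Mest windows that hold the same matches. The median number of CG dinucleotides was 13 in these promoters and 7 in all. The sequences are from GRCm38.p6, each read along its gene. A match is a description of the letters and not of binding.
Mest, first start, chr6:30733256-30733555, plus strand: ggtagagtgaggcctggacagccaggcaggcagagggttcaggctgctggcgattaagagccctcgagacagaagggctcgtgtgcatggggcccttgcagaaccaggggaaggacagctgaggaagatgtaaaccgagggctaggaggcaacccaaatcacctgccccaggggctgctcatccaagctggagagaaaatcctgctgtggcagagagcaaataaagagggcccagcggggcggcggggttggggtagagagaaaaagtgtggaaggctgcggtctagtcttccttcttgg
Mest, second start, chr6:30737800-30738099, plus strand: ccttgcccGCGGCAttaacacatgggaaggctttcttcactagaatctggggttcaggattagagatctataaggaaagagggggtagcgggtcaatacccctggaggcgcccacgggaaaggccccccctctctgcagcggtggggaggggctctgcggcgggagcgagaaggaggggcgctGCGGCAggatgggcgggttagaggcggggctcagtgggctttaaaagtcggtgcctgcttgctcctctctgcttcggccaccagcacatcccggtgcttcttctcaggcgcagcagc
The first Mest promoter holds 0 matches and 8 CG, and the second 2 matches and 17 CG. Which of these starts the Mest probe set reads was not examined.

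Nap1l5, Nnat, Peg3 and Inpp5f are paternally expressed genes known from the brain, and all 4 were highest on NSC and lower on both induced arrays. Nap1l5, related to nucleosome assembly proteins, read 143 on MEF, 4311 on NSC, 51.3 on iNSC_13F and 572 on iNSC_14F. It was 30.1-fold higher on NSC than on MEF, and at least 41.5-fold and 7.54-fold lower than NSC on iNSC_13F and iNSC_14F. It was also at least 5.50-fold higher on iNSC_14F than on iNSC_13F. That call is lost with the floor at the 99th percentile (log2 1.65). Nnat encodes neuronatin, a small membrane protein of developing neural tissue. It read 142 on MEF, 1434 on NSC, 25.6 on iNSC_13F and 27.9 on iNSC_14F, 10.1-fold higher on NSC than on MEF and at least 13.8-fold lower than NSC on each induced array. Blcap, the gene within which Nnat lies, read 1319, 947, 1692 and 1768 and was not apart in any pair.

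The Nap1l5 and Nnat promoters follow, as examples of starts with the hexamer in genes that were high on NSC and low on iNSC_13F.
Nap1l5, chr6:58907077-58907376, minus strand: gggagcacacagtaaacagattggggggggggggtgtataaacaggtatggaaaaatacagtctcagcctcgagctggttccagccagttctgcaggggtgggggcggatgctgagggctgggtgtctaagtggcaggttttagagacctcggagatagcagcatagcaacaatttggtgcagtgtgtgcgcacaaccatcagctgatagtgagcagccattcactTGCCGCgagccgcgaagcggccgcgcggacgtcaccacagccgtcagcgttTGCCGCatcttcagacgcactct
Nnat, chr2:157559828-157560127, plus strand: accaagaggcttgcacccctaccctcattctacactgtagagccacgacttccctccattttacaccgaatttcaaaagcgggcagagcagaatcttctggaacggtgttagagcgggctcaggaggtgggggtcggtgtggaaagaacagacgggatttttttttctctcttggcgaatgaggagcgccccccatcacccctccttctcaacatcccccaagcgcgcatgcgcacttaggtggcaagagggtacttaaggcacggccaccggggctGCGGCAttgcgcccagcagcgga
Each has 17 CG, with 2 matches in Nap1l5 and 1 in Nnat. The promoters of Peg3, Inpp5f and Ube3a, which were also high on NSC and low on iNSC_13F, hold 0 matches. Whether the hexamer goes with these signals was not tested. A start of Meg3 at chr12:109540746-109541045 on the plus strand also holds 1 match, so a match was found in genes highest on MEF as well.
Meg3, chr12:109540746-109541045, plus strand: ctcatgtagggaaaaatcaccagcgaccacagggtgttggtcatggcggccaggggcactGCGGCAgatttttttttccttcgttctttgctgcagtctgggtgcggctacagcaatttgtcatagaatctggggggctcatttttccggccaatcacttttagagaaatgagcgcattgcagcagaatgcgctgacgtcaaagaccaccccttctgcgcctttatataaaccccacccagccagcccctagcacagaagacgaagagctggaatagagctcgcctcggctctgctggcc

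Peg3 encodes a large zinc finger protein and read 548 on MEF, 2433 on NSC, 318 on iNSC_13F and 832 on iNSC_14F. It was 4.44-fold higher on NSC than on MEF and 7.65-fold lower on iNSC_13F than on NSC. On iNSC_14F it was below NSC by less than 4-fold, with a log2 difference of -1.55, which passes 4-fold with hybridization control scaling (-2.45). Its probe sets at 1011 and 276 on NSC were both lower on the other arrays too. The median over its 5 probe sets falls short of 4-fold, at 1.41 between NSC and MEF and -1.41 between iNSC_13F and NSC on the log2 scale. Inpp5f, a phosphoinositide phosphatase gene with an imprinted brain transcript, read 294 on MEF, 2496 on NSC, 575 on iNSC_13F and 528 on iNSC_14F. It was 8.49-fold higher on NSC than on MEF and 4.34-fold and 4.73-fold lower than NSC on the induced arrays, the first of which is -1.90 on the log2 scale after quantile normalization. A second Inpp5f probe set read 137, 770, 188 and 112. For all 4 of these genes the iNSC_13F signal was within 2-fold of MEF or below it.

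The Prader-Willi and Angelman domain holds several paternally expressed genes and the maternally expressed Ube3a. Ube3a encodes a ubiquitin ligase whose imprint is known in neurons, and which is transcribed from both copies in most other cells. It read 1724 on MEF, 5351 on NSC, 185 on iNSC_13F and 193 on iNSC_14F. The NSC and MEF arrays were less than 4-fold apart, but past 4-fold with hybridization control scaling (log2 1.63 as reported and 2.52 with it). On the induced arrays Ube3a was 9.33-fold and 8.91-fold lower than on MEF, and 29.0-fold and 27.7-fold lower than on NSC. It ranked 10 of 10812 from the lowest difference between iNSC_14F and NSC. Probe sets at 297 and 300 on MEF and at 572 and 330 on NSC were below the floor on both induced arrays. Ube3a was therefore low on both induced arrays in each probe set bright enough to show it, although the median of its 6 probe sets, several of them dim, falls short of 4-fold (log2 -0.61 against MEF and -1.19 against NSC).

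The paternally expressed genes of this domain differed among themselves. Mkrn3, a ring finger protein gene, read 32.4 on MEF, 471 on NSC, 340 on iNSC_13F and 334 on iNSC_14F. It was at least 4.53-fold higher on NSC than on MEF, and the induced arrays were within 2-fold of NSC. With the floor at the 99th percentile the NSC difference is 1.37 on the log2 scale, and with quantile normalization Mkrn3 passes 4-fold between iNSC_13F and MEF (2.01). Peg12 read 319 on MEF, 983 on NSC, 2095 on iNSC_13F and 569 on iNSC_14F, and it was 6.57-fold higher on iNSC_13F than on MEF. With hybridization control scaling Peg12 is also past 4-fold between NSC and MEF, at 2.51 on the log2 scale. Ndn, which encodes the MAGE family protein necdin, was bright on every array, at 7991, 7679, 5921 and 5666. Snurf and Snrpn share a transcript and 6 probe sets. The brightest of these read 1409 on MEF, 1985 on NSC, 1536 on iNSC_13F and 1728 on iNSC_14F. Another one read 372, 1060, 97.2 and 1156, at least 11.1-fold higher on iNSC_14F and at least 10.2-fold higher on NSC than on iNSC_13F. A further one, at 131, 557, 157 and 434, was 2.77-fold higher on iNSC_14F than on iNSC_13F and 4.26-fold higher on NSC than on MEF. Neither the brightest nor one at 771, 805, 1188 and 1436 showed these differences. The probe set of Snrpn alone was above the floor on iNSC_14F only, at 134, and Magel2 lay between 42.3 and 112.

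Impact, a paternally expressed regulator of translation under stress, resembled Grb10 and Ube3a in its brightest probe set. It read 1257 on MEF, 1297 on NSC, 201 on iNSC_13F and 291 on iNSC_14F. It was 6.26-fold and 4.33-fold lower than on MEF, and 6.46-fold and 4.46-fold lower than on NSC, the last of which is -1.98 on the log2 scale after quantile normalization. A second probe set, dimmer, read 135, 87.1, 217 and 146 and did not share this order. With the median of its probe sets the direction turned, with log2 differences of 0.57 and 0.11 from MEF and 0.95 and 0.49 from NSC. Grb10, Impact and Ube3a were the 3 of 28 imprinted genes at least 4-fold lower on both induced arrays than on both references, against 2.01% of all genes.

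In the comparison of iNSC_13F with NSC, 7 of the 22 imprinted genes measured were at least 4-fold apart (31.8%, against 12.3% of all genes), and in that of iNSC_14F with NSC 8 of 24 (33.3%, against 10.8%). Lower than NSC were 7 of them on each induced array, against 11.3% and 9.40% of all genes. Grb10, Impact, Inpp5f, Nap1l5, Nnat and Ube3a were lower on both, Peg3 on iNSC_13F and Mest on iNSC_14F. None of the 22 was higher on iNSC_13F, against 1.07% of all genes, and Igf2r was higher on iNSC_14F, against 1.42%. The median log2 differences were -0.16 and -0.47, against 0.30 and 0.33 over all genes. With hybridization control scaling they were -1.12 and -1.24, against -0.65 and -0.48, with 8 lower and 0 higher in each comparison and 20.6% and 17.5% of all genes apart. With the median of probe sets, 3 of 16 and 5 of 16 genes were apart, against 8.60% and 7.65% of all genes, and when both arrays had to be above the floor 4 of 15 on iNSC_13F, against 10.4%.

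Against MEF, 9 of 25 genes were apart on iNSC_13F (36.0%, against 12.9% of all genes) and 7 of 27 on iNSC_14F (25.9%, against 12.5%). Lower than MEF were 7 on each array, against 9.27% and 8.03% of all genes, and these were Grb10, Igf2, Impact, Meg3, Mirg, Rian and Ube3a on both. Mest and Peg12 were higher on iNSC_13F, against 3.66% of all genes, and none of the 27 was higher on iNSC_14F, against 4.49%. Nap1l5 lay just outside the rule there, with signals of 572 on iNSC_14F and 143 on MEF, and with quantile normalization it was past 4-fold (log2 2.22). The median log2 differences were -0.46 and -0.45, against 0.09 and 0.10 over all genes. With the median of probe sets, 4 of 22 and 2 of 23 genes were apart, against 9.82% and 9.66% of all genes. When both arrays had to be above the floor they were 4 of 16 and 4 of 17, against 9.83% and 8.94%.

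The genes that separate the references were placed on each induced array, with signals below the floor set to it. A gene was at the NSC level or at the MEF level when it was then within 2-fold of that reference. Otherwise it was between the references or outside them. Of the 6 genes higher on NSC, Mest and Mkrn3 were at the NSC level on iNSC_13F, and Inpp5f, Nap1l5, Nnat and Peg3 at the MEF level. On iNSC_14F Mkrn3 was at the NSC level, Nap1l5 was between, and Inpp5f, Mest, Nnat and Peg3 were at the MEF level. Nnat on both induced arrays and Nap1l5 on iNSC_13F were below the floor, so the floor and not their signal was within 2-fold of MEF. Over the 700 genes of the whole array higher on NSC, 33.6% and 35.3% were at the NSC level on iNSC_13F and iNSC_14F, and 39.4% and 38.6% at the MEF level. Of the 7 genes higher on MEF, Dlk1, Igf2, Meg3, Mirg and Rian were at the NSC level on both induced arrays, Grb10 was outside on both, and Igf2r was between on iNSC_13F and at the MEF level on iNSC_14F. For Igf2, Mirg and Rian the NSC and induced signals were all below the floor, so no order among them is read. Over all 828 genes higher on MEF, 68.2% and 66.8% were at the NSC level and 4.47% and 4.11% outside.

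Between the induced arrays, 2 of 22 imprinted genes were at least 4-fold apart (9.09%), against 0.842% of all genes. Nap1l5 was the gene higher on iNSC_14F, against 0.500% of all genes, and Mest was the gene lower, against 0.342%. The pair was otherwise close. For 95% of the 9311 genes that exceeded the floor in both induced samples the difference was under 2.32-fold, and the median log2 difference of the imprinted genes was 0.08, against 0.07 over all genes. Peg12, at 3.68-fold lower on iNSC_14F, and Peg3, at 2.62-fold higher, came next and did not reach 4-fold. The count was 1 with the floor at the 99th percentile or when both arrays had to be above the floor, where Mest remained, and 4 with a pseudocount of 16 in place of the floor.

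**Figure D4:**
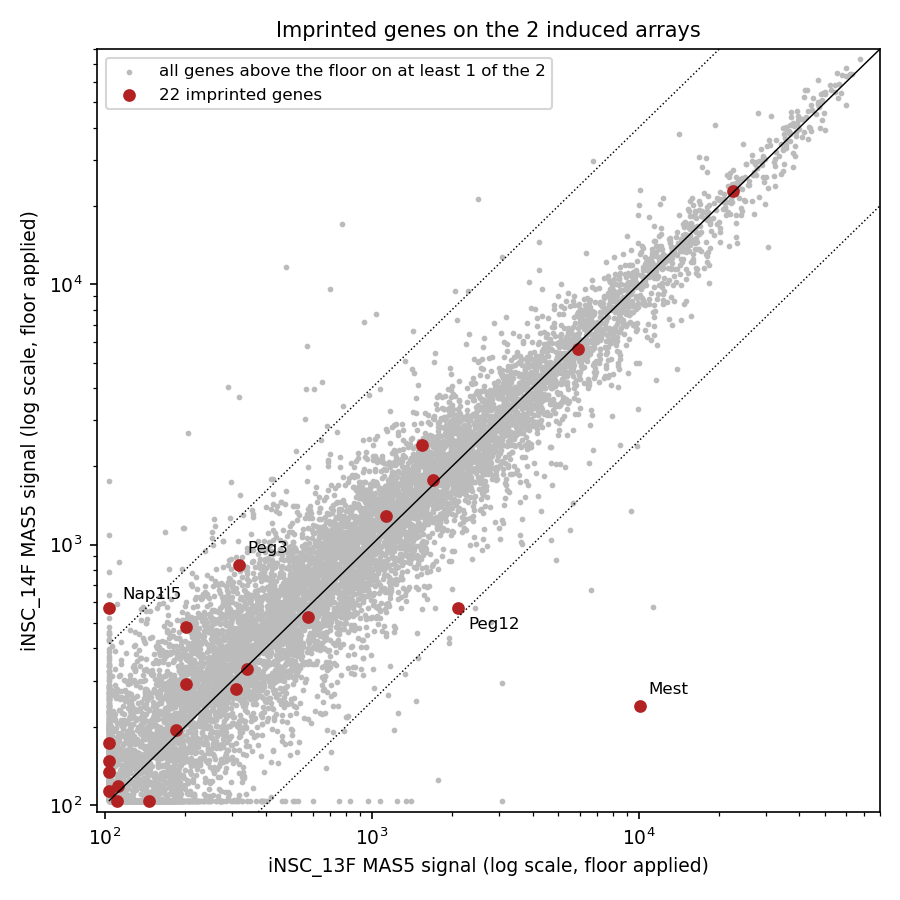
Signal on the iNSC_14F array against the iNSC_13F array (both log scale, values below 103.91 set to it) for all genes that exceed the floor on either (grey) and for the 22 imprinted genes among them (red), with a line of equality and dotted lines at 4-fold. Mest lies far below the lower line, at 10138 on iNSC_13F and 239.5 on iNSC_14F, and Nap1l5 lies above the upper line at the floor of iNSC_13F.

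Imprinted genes above the floor that were not 4-fold apart in any pair numbered 12. Bright on all 4 arrays were Gnas, the gene of the stimulatory G protein alpha subunit, with 22026 on MEF, 13210 on NSC, 22648 on iNSC_13F and 22923 on iNSC_14F, and Ndn. Sgce, the epsilon sarcoglycan gene, read 1265, 981, 1133 and 1290, and Cdkn1c, a maternally expressed inhibitor of the cell cycle, 557, 314, 311 and 280. Copg2 and Blcap were above the floor on all arrays as well. Airn, Kcnq1ot1, Magel2, Rasgrf1, Slc22a18 and Snrpn stayed near the floor or below it, with no signal above 153.4 in the probe sets compared, so their levels say little. Snrpn was compared here by its own probe set only. Of those shared with Snurf, the brightest read 1409 to 1985, and some dimmer ones passed 4-fold in some pairs, as given above.

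By parental copy, the list holds 21 paternally expressed genes, 15 maternally expressed genes and 2 (Gnas and Grb10) expressed from either by tissue or transcript, and 17, 9 and 2 of them exceeded the floor on 1 array or more. Between NSC and MEF, 6 of 15 paternal genes were higher and 2 lower on NSC, with a median log2 difference of 0.09, while 0 of 9 maternal genes were higher and 4 lower, with a median of -0.83. Over all genes 6.09% were higher and 7.21% lower, with a median of -0.01. The split depends on the scaling. With hybridization control scaling the maternal genes Copg2 (log2 2.14) and Ube3a (2.52) were also past 4-fold higher on NSC. So was the paternal gene Peg12 (2.51), while the paternal gene Dlk1 was no longer 4-fold lower (-1.71). With iNSC_13F and NSC, 5 of 14 paternal genes were lower and 0 higher (median -0.22), and 1 of 6 maternal genes was lower and 0 higher (median -0.13). With iNSC_14F and NSC, 5 of 15 paternal genes were lower and 0 higher (median -0.56), and of 7 maternal genes 1 was lower and 1 higher (median -0.16). Over all genes 11.3% and 9.40% were lower than NSC on the induced arrays and 1.07% and 1.42% higher, with medians of 0.30 and 0.33. With hybridization control scaling the maternal gene Copg2 was also lower on iNSC_13F (-2.90) and the paternal gene Peg3 on iNSC_14F (-2.45). Igf2r was then no longer 4-fold higher on iNSC_14F (1.17). Quantile normalization ended the calls of Inpp5f on iNSC_13F (-1.90) and of Impact on iNSC_14F (-1.98), both paternal. Of the 4 maternal genes lower on NSC than on MEF, 3 lie in the Dlk1-Meg3 domain and share its control region. The maternal gene lower than NSC on each induced array was Ube3a, whose imprint is known in neurons, and Copg2 is maternally expressed only in some tissues. The groups therefore follow the list and not a copy measured in these cells. Paternal and maternal genes were not tested against each other.

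**Figure D5:**
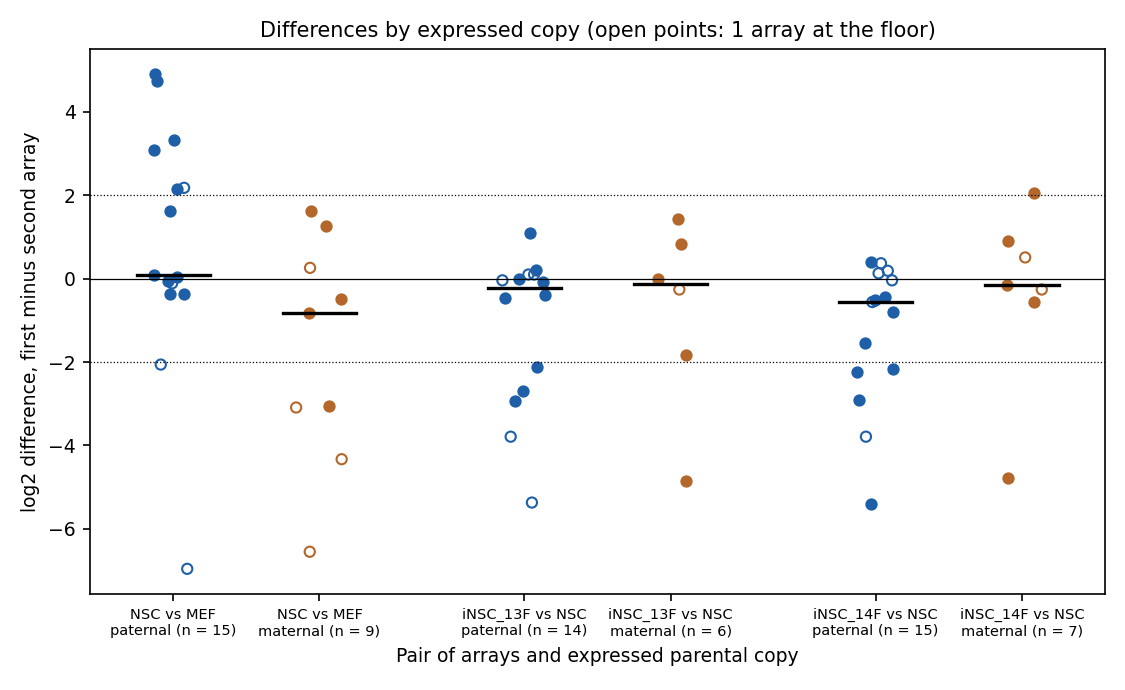
Difference in log2 signal (first minus second array) of each imprinted gene measured in 3 pairs of arrays, with a bar at the median. Genes are split by the parental copy they are listed under, which the arrays did not measure. Open points are bounds with 1 array at the floor, and dotted lines mark 4-fold. Between NSC and MEF the points above the upper line are paternally expressed genes, 6 in number. The maternal genes Copg2 and Ube3a pass that line too with hybridization control scaling, which is not drawn.

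A wider list of 44 other genes known as imprinted, 37 with a probe set, served as a comparison. Between NSC and MEF 4 of 30 were higher and 6 lower, against 6.09% and 7.21% of all genes. Against MEF, 2 of 31 were higher and 4 lower on iNSC_13F (3.66% and 9.27% of all genes), and 1 of 31 was higher and 4 lower on iNSC_14F (4.49% and 8.03%). In comparisons with NSC, 2 of 20 were lower and 0 higher on iNSC_13F (11.3% and 1.07%), and 2 of 21 were higher and 0 lower on iNSC_14F (1.42% and 9.40%). The last split turned to 1 higher and 3 lower of 22 with hybridization control scaling, and with that scaling 6 were higher and 5 lower between NSC and MEF. With quantile normalization 1 of 20 was lower on iNSC_13F than on NSC. None of 22 was apart between the induced arrays, against 0.842% of all genes. The widest ranges were those of Plagl1, a zinc finger transcription factor gene, at 5120 on MEF, 662 on NSC, 498 on iNSC_13F and 196 on iNSC_14F, and of Gatm, which encodes an enzyme of creatine synthesis, at 147, 2881, 1939 and 2485. Slc38a4, an amino acid transporter gene, read 1661 on MEF and at most 21.4 elsewhere, and Tfpi2, a protease inhibitor gene, 843 and at most 29.6. Ppp1r9a read 56.7, 1017, 202 and 366, and Osbpl5 825, 49.7, 254 and 214.

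Of 15 genes that keep or set imprints, 12 exceeded the floor on 1 array or more. Between NSC and MEF, 11 of 12 were higher on NSC, with a median log2 difference of 1.10, against -0.01 over all genes. By 4-fold 1 was higher and 0 lower, against 6.09% and 7.21% of all genes. With hybridization control scaling 6 of 12 were 4-fold higher on NSC, where 20.9% of all genes were apart. Against NSC, 5 of 12 were at least 4-fold lower on each induced array and 0 higher, where 11.3% and 9.40% of all genes were lower and 1.07% and 1.42% higher. With hybridization control scaling 6 of 12 were lower on each. Of the 12, 6 had a signal above that of NSC on each induced array, none by 4-fold, but 0 and 2 did on iNSC_13F and iNSC_14F with hybridization control scaling. Among these were Dnmt1, the maintenance DNA methyltransferase, at 1902 on MEF, 3087 on NSC, 4823 on iNSC_13F and 6825 on iNSC_14F, and its partner Uhrf1, at 2485, 3155, 5148 and 5800, both named after their values were seen. Against MEF, 4 were lower on iNSC_13F and 1 on iNSC_14F, against 9.27% and 8.03% of all genes. Atrx, a chromatin remodeller gene, read 1002 on MEF, 4227 on NSC, 91.3 on iNSC_13F and 268 on iNSC_14F. Smchd1, needed for silencing at several imprinted domains, read 982, 3375, 128 and 163. Zfp445, a zinc finger protein gene that acts in imprint upkeep, read 1085, 3630, 151 and 317. Arid4b read 471, 1198, 72.3 and 155, and Arid4a 163, 643, 8.14 and 43.8. The Arid4a signals of the induced arrays are under the floor and have no order. Zfp57, named after its values were seen because its hexamer is marked above, was below the floor on every array, at 5.19 to 11.5, as were Dppa3 and Dnmt3l.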

How the data were processed

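Total RNA of 4 mouse cell samples was hybridized to 1 array each after biotin labelling, per the labels' protocols. Samples were grouped by their cell type label, since the source label reads the same, embryonic stem cells, throughout. The deposited values are intensities, 1 linear signal for each probe set, and the authors made them with MAS5 per the submitters' processing notes, with no version or settings given there. Each array had a 2% trimmed mean of 500, so signals were not scaled again. MAS5 scales an array by 1 factor, so differences between arrays that depend on brightness remain.

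Names came from the platform annotation, updated by gene ID with RefSeq names (34741 of 34945 probe sets with 1 gene matched). The 932 probe sets with several genes were left out of gene counts, and 9160 had no gene named. A gene took the probe set with the highest mean log2 signal after the floor, and signals under the floor of 103.91 were set to it. There were 10561, 9854, 10164 and 9956 genes above it on the MEF, NSC, iNSC_13F and iNSC_14F arrays. Precision is limited by the number of arrays, and 1 array in a group allows no test. The actin controls gave ratios of 3' to 5' signal of 1.42, 1.35, 1.53 and 1.65 on the 4 arrays. Computation used Python 3.11.15, numpy 2.4.6 and pandas 2.3.3.

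All 38 genes could be named, with 4 signals for those 4-fold apart in any pair. Up to 6 genes with the widest range above the floor were named from each of the other lists. The genes, the lists and the rules were chosen with earlier results of these data known. Alternatives were quantile normalization, scaling to the hybridization controls, floors at the 75th and the 99th percentile, a pseudocount of 16 in place of the floor, the median over a gene's probe sets, no probe sets ending in _s_at or _x_at, and measurement above the floor on both arrays. Counting joint probe sets for H19 and Snrpn was added after seeing the data.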

Additional observations from a re-analysis of the deposited data

Results flagged for a closer look

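Mest stands out because the induced arrays lay on opposite sides of MEF, although iNSC_14F was only 1.58-fold lower and so at the MEF level. The log2 difference from MEF was 4.74 on iNSC_13F, where the signal was 10138, and -0.66 on iNSC_14F, where it was 239.5. This difference between the induced samples was not tested, since each has 1 array, and it rests on a single probe set.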

How the results depend on the processing

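Of 46 single-gene calls, each recomputed under the alternatives, 24 values fell short of 4-fold, 4 changed sign, and 364 kept their direction and their side of 4-fold. A further 22 gave no value because the gene no longer counted as measured, 19 of them when both arrays had to be above the floor, 2 with the median of probe sets (Grb10 on each induced array against NSC) and 1 without the _s_at and _x_at probe sets (Dlk1 between NSC and MEF). The 4 were all Impact with the median of probe sets, at 0.57 and 0.11 on the log2 scale for iNSC_13F and iNSC_14F against MEF and 0.95 and 0.49 against NSC. Neither quantile normalization nor scaling to the hybridization controls reversed a call. With that scaling the median of the imprinted genes was 0.53 between NSC and MEF, -1.12 between iNSC_13F and NSC and -1.24 between iNSC_14F and NSC.

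Counts stayed within 1.5 times of those reported in 42 of 54 cases. With the median of probe sets they were 8, 4, 2, 3 and 5 for NSC, iNSC_13F and iNSC_14F against MEF and iNSC_13F and iNSC_14F against NSC. When both arrays had to be above the floor, they were 7, 4 and 4 against MEF and 4 for iNSC_13F against NSC. Between the induced arrays the count was 1 with that rule, 1 with the floor at the 99th percentile and 4 with a pseudocount of 16. The median takes in dim probe sets and the rule of both arrays takes in fewer genes. Other causes were not tested.

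No paired analysis was possible because each group holds 1 array, which also leaves no replicate to omit. Signals near the floor of 103.91 give bounds only. Alternative floors were 50.01 and 182.72.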
